A study of Homo sapiens with 6 samples.

Results

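Genes of the epithelial-mesenchymal transition (EMT) mark whether an epithelial cell keeps its junctions or takes on a mesenchymal state. Here the genes CDH1, CDH2, VIM, SNAI1, SNAI2, ZEB1, ZEB2, TWIST1, EPCAM and OCLN were followed in HK2 cells, an immortalized cell line of the human proximal tubule. They were chosen by symbol as classical EMT markers and regulators. All 10 were found among the 38100 genes of the deposited tables and all 10 had enough counts to be tested. Both groups of the series received TGF-β1, and they differed in their adenovirus, which was a control vector in the AdCtrl group and carried SIRT4 in the AdSIRT4 group. Each group held 3 samples, which are the whole series, the genotype label was WT throughout, and mRNA was selected with poly-T beads before sequencing. The comparison therefore asks whether excess SIRT4, a sirtuin of the mitochondria and the nucleus, goes with another level of EMT transcripts in cells that are already under TGF-β1. The series holds no cells without TGF-β1, so the response to the cytokine itself was not measured here. The study's text gives n in its cell culture experiments as technical replicates, and p-values may then measure only the spread between such samples.

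In EMT, epithelial cells loosen their junctions, gain vimentin filaments and exchange E-cadherin (CDH1) for N-cadherin (CDH2). TGF-β1 is a classical inducer of this change. It acts through SMAD proteins, which raise a small set of transcription factors of the SNAI, ZEB and TWIST families. SNAI and ZEB proteins are zinc finger repressors that bind a DNA element called the E-box, of which CAGGTG is the best known form, and CDH1 is their textbook target. TWIST1 is a basic helix-loop-helix factor. Proximal tubular cells differ from many epithelia in that they carry N-cadherin as a main cadherin already in the healthy kidney. In kidney injury, tubular cells are known to take on a partial EMT, in which they express mesenchymal genes without leaving the epithelium.

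Total counts were between 41537353 and 85684748 per sample. SIRT4 itself, which checks the labels, had 31 to 57 counts in the AdCtrl samples and 1996 to 7995 in the AdSIRT4 samples (log2 fold change 6.36, adjusted p = 0.00801 from edgeR), and these counts do not separate the viral transcript from that of the cells. AdSIRT4 replicate 1 stood apart from the other AdSIRT4 samples. Relative to them its log2 CPM (CPM are counts scaled to a common library size) differed in the median by 0.68 over the shortest 10% of genes and by -0.74 over the longest 10%, so results of the 10 genes, and list genes that it moves by over 1.5 times, are given with and without it. Of the 14 markers listed for the kidney tubule, 10 had at least 10 counts in every sample, keratins (KRT8, KRT18), PAX8 and the brush border enzyme GGT1 (210.2 to 247.2 CPM) among them. Of the other genes of the differentiated proximal tubule, SLC34A1 was low (0.406 to 0.906 CPM), and AQP1, LRP2, CUBN and ANPEP were at or near 0. The summed level of the 14 was 1836 to 1908 CPM in the AdCtrl samples and 1766 to 2262 CPM in the AdSIRT4 samples.

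The cells showed high levels of N-cadherin, vimentin and EPCAM and very little E-cadherin in both groups. Levels of different genes were compared in FPKM, which divides the counts by gene length as well as by library size. In AdCtrl cells the order was VIM (280.6 FPKM), EPCAM (72.0 FPKM), CDH2 (51.6 FPKM), TWIST1 (7.29 FPKM), SNAI1 (5.37 FPKM), ZEB1 (3.57 FPKM), ZEB2 (2.93 FPKM), OCLN (0.722 FPKM), SNAI2 (0.324 FPKM) and CDH1 (0.119 FPKM), each a mean of 3 samples. No neighbours in this order overlapped between samples. The means of the AdSIRT4 cells followed the same order, but there the ranges of ZEB1 and ZEB2 overlapped, and so did those of OCLN and SNAI2. Among all 17720 genes tested, mean FPKM in AdCtrl cells placed VIM above 99.0% of genes, EPCAM above 95.6%, CDH2 above 93.7% and CDH1 above 9.62%.

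**Figure D1:**
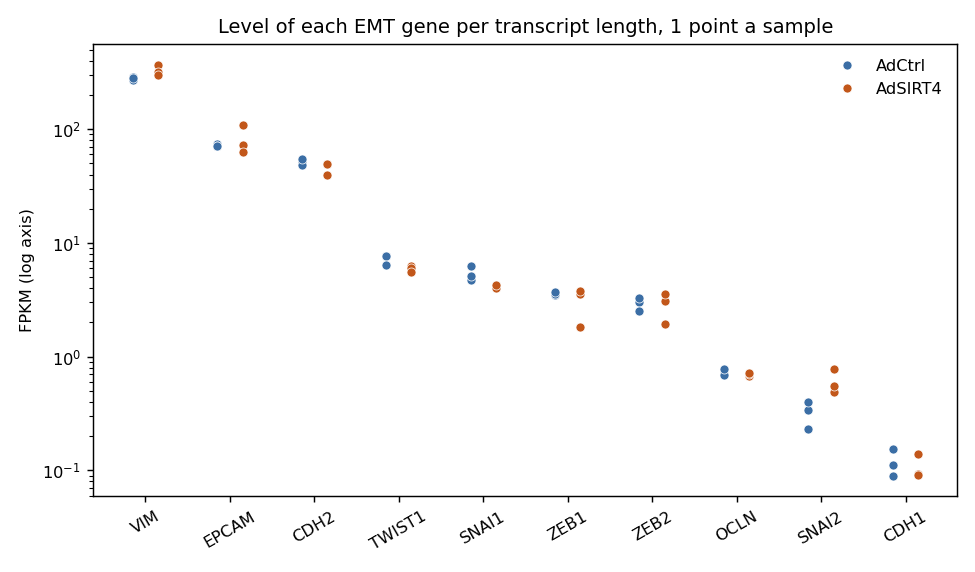
FPKM of the 10 EMT genes on a log axis, 1 point a sample, with the 3 AdCtrl samples in blue and the 3 AdSIRT4 samples in orange. VIM, EPCAM and CDH2 lie at the top and CDH1 at the bottom in both groups, with AdCtrl means of 280.6 and 0.119 FPKM at the ends.

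None of the 10 genes differed between AdSIRT4 and AdCtrl cells at an adjusted p under 0.05, in a fit in which edgeR's quasi-likelihood test gave 2 of 17720 genes (0.0113%). An unadjusted p under 0.05 was reached by 2 of the 10, the SNAI pair, with opposite signs, SNAI2 higher and SNAI1 lower in AdSIRT4 cells. Over all genes tested 7.93% had such a p, 4.43% higher and 3.5% lower. Of the 10 genes, 3 had a higher estimate and 7 a lower one, and their median log2 fold change was -0.078, against 0.021 over all genes tested. For 4 of the 10 the samples of the groups did not overlap (CDH2, VIM, SNAI1 and SNAI2), where 19.4% of all genes tested did not overlap. SNAI2 apart, no estimate was farther from 0 than 0.34 on the log2 scale.

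**Figure D2:**
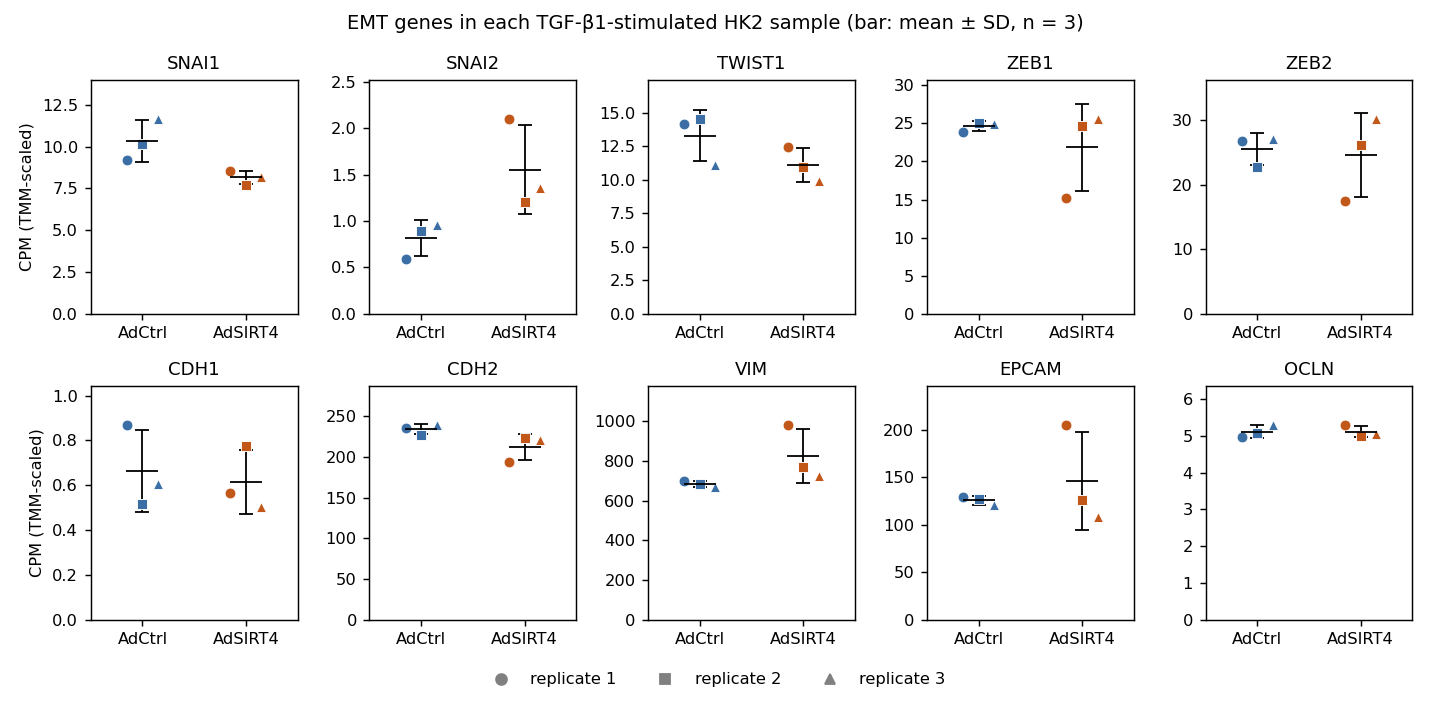
CPM of each EMT gene in the 3 AdCtrl samples (blue) and the 3 AdSIRT4 samples (orange), with symbols for the replicate number, a black bar for the mean and whiskers for the SD, on axes that start at 0. The groups do not overlap for SNAI1, SNAI2, CDH2 and VIM, and AdSIRT4 replicate 1 (circle) is the outlying orange point for SNAI2, ZEB1, ZEB2, VIM, EPCAM and CDH2.

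SNAI2 (Slug, Entrez gene 6591) is a SNAI repressor that is also known from neural crest migration and wound re-epithelialization. AdCtrl replicates 1, 2 and 3 had 0.592, 0.894 and 0.954 CPM of it, against 2.1, 1.21 and 1.35 CPM for AdSIRT4 replicates 1, 2 and 3, and the samples are given in this order throughout. Every AdSIRT4 sample thus lay above every AdCtrl sample, with AdSIRT4 replicate 1 the highest. These are low values, which rest on 32 to 49 counts in the AdCtrl samples and 82 to 110 counts in the AdSIRT4 samples. The log2 fold change was 0.92 (standard error 0.307, 95% interval 0.19 to 1.65), a 1.89-fold higher level, with an unadjusted p = 0.0200 and an adjusted p = 0.571 in edgeR. Without AdSIRT4 replicate 1 the log2 fold change was 0.65 (adjusted p = 0.154), and over all fits that left out 1 sample it was between 0.65 and 1.08.

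SNAI1 (Snail, Entrez gene 6615, chromosome 20 of GRCh38.p14 from 49982980 to 49988886) is the family member that TGF-β1 induces early through SMAD proteins, and its protein is short-lived. The AdCtrl samples had 9.19, 10.2 and 11.7 CPM, and the AdSIRT4 samples had 8.54, 7.74 and 8.19 CPM. The groups did not overlap, and AdSIRT4 replicate 1 was close to the other AdSIRT4 samples. Its log2 fold change was -0.34 (standard error 0.125, 95% interval -0.64 to -0.050), with an unadjusted p = 0.0277 and an adjusted p = 0.601 in edgeR. Leaving out AdSIRT4 replicate 1 gave -0.38 with an adjusted p of 0.0625, the smallest that any of the 10 genes reached in any of 18 fits.

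TWIST1 (Entrez gene 7291, chromosome 7 from 19113047 to 19117636) is a transcription factor of mesoderm and neural crest that favours N-cadherin expression. The AdCtrl samples had 14.2, 14.6 and 11.1 CPM, and the AdSIRT4 samples had 12.4, 11 and 9.92 CPM. The groups overlapped, while each AdSIRT4 sample was lower than the AdCtrl sample of the same replicate number. Its log2 fold change was -0.26 (95% interval -0.61 to 0.088) with an adjusted p of 0.705 in edgeR. The estimate was -0.35 without AdSIRT4 replicate 1, with an unadjusted p = 0.0129 in edgeR and an adjusted p of 0.10.

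ZEB1 (Entrez gene 6935, chromosome 10 from 31318417 to 31529804) and ZEB2 (Entrez gene 9839, chromosome 2 from 144384081 to 144520119) are the large zinc finger repressors that are held in check by microRNAs of the miR-200 family. ZEB1 stood at 23.9, 25.1 and 25 CPM with the control virus and at 15.2, 24.7 and 25.6 CPM with the SIRT4 virus. AdSIRT4 replicate 1 alone was low, while the other AdSIRT4 samples lay among or just above the AdCtrl samples. The log2 fold change of ZEB1 was -0.17 (standard error 0.195, adjusted p = 0.804 in edgeR) with that sample and 0.026 (standard error 0.0653, 95% interval -0.12 to 0.17) without it. ZEB2 stood at 26.7, 22.8 and 27.2 CPM with the control virus and at 17.5, 26.2 and 30.3 CPM with the SIRT4 virus, again with AdSIRT4 replicate 1 lowest. Its log2 fold change was -0.050 (adjusted p = 0.937 in edgeR) with that sample and 0.14 (adjusted p = 0.382) without it. ZEB1 reads are uncertain at one end, since the antisense gene ZEB1-AS1 overlaps its start and no strand setting of the count is given in the sources used here.

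The E-box CAGGTG, read on both strands as CAGGTG or CACCTG, was looked for in RefSeq windows (GRCh38.p14) from 250 bases before to 50 bases after each annotated start, because SNAI and ZEB proteins bind it. Of the 10 genes, 5 (CDH2, VIM, ZEB1, ZEB2 and OCLN) had a window, 13 windows in all. The E-box was found 7 times, in 4 windows of OCLN and ZEB1. It is a frequent element, held by 20.6% of all 35116 windows. One site of each window is shown 5′ to 3′ on the plus strand, which is the strand of both genes, with the E-box in capitals.
OCLN, chr5:69492504-69492529, position -33 from its start: atccgagtttCAGGTGaattggtcac
OCLN, chr5:69492647-69492672, position -133 from another start: taggacgcagCAGGTGggactcgcgg
ZEB1, chr10:31318350-31318375, position -57 from its start: gaggtgacagCAGGTGagggccgggt
ZEB1, chr10:31319121-31319146, position -85 from another start: tgtcgtaaacCAGGTGcggtggggag
These matches describe the letters in the windows and no binding was measured.

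E-cadherin and N-cadherin are the calcium-dependent adhesion proteins whose exchange is the classical sign of EMT. CDH1 (Entrez gene 999, chromosome 16 from 68737292 to 68835537) measured 0.869, 0.518 and 0.603 CPM with the control virus and 0.565, 0.777 and 0.504 CPM with the SIRT4 virus. The groups overlapped fully, on only 22 to 67 counts per sample. The log2 fold change of CDH1 was -0.11 with a standard error of 0.311 (adjusted p = 0.911 in edgeR), and its 95% interval from -0.84 to 0.63 does not exclude a difference of 1.5-fold either way. A small difference in CDH1 was therefore not detectable at this depth.

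CDH2 (Entrez gene 1000, chromosome 18 from 27932879 to 28177130) was measured far more precisely, on 7577 to 19236 counts. The AdCtrl samples had 236.1, 227.2 and 239.4 CPM, and the AdSIRT4 samples had 194.4, 223.1 and 220.3 CPM. Every AdSIRT4 sample was lower than every AdCtrl sample, replicate 1 the most. For CDH2 the log2 fold change was -0.14 (95% interval -0.38 to 0.097, adjusted p = 0.743 in edgeR), and it was -0.084 (adjusted p = 0.336) without AdSIRT4 replicate 1.

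The balance of the cadherins differed between the groups by less than the spread of the samples. Taken within each sample, CDH2 was 335 to 541 times as high as CDH1 in FPKM, over both groups. The log2 ratio of CDH1 to CDH2 averaged -8.80 ± 0.364 under the control virus and -8.75 ± 0.312 under the SIRT4 virus (SD, n = 3 each), and the groups overlapped. The log2 ratio of CDH1 to VIM differed by -0.35 in AdSIRT4 cells, also with overlapping groups, and by -0.18 without AdSIRT4 replicate 1. These ratios are free of the scaling of the libraries, though not of effects of gene length, and were not tested.

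VIM (Entrez gene 7431, chromosome 10 from 17228241 to 17237593) encodes vimentin, the intermediate filament of mesenchymal cells, which cultured tubular cells also make. The AdCtrl samples had 699.1, 683.5 and 666.9 CPM, and the AdSIRT4 samples had 980.5, 770.5 and 720.9 CPM. All AdSIRT4 samples were above all AdCtrl samples, and AdSIRT4 replicate 1 was farthest from them. For VIM the log2 fold change was 0.27 (standard error 0.145, 95% interval -0.072 to 0.61, adjusted p = 0.701 in edgeR). It was 0.12 (standard error 0.0541, unadjusted p = 0.0455 and adjusted p = 0.197 in edgeR) without that sample. VIM-AS1, an antisense gene, overlaps the start of VIM, so reads there cannot be told apart without strand.

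EPCAM (Entrez gene 4072, chromosome 2 from 47369311 to 47387020) encodes an epithelial cell adhesion molecule, and OCLN (Entrez gene 100506658, chromosome 5 from 69492547 to 69558104) encodes occludin, a membrane protein of tight junctions. EPCAM measured 129.4, 127.3 and 120.7 CPM with the control virus and 205.1, 126.0 and 108.0 CPM with the SIRT4 virus. AdSIRT4 replicate 1 alone was high, and the other AdSIRT4 samples lay near or below the controls. The log2 fold change of EPCAM turned from 0.22 (adjusted p = 0.792 in edgeR) to -0.11 (95% interval -0.26 to 0.044, adjusted p = 0.366) when that sample was left out. OCLN had the estimate closest to 0 of the 10 genes, at 4.96 to 5.29 CPM in AdCtrl and 5.0 to 5.29 CPM in AdSIRT4 samples. Its log2 fold change was -0.0015 with a 95% interval from -0.27 to 0.27 (adjusted p = 0.996 in edgeR), so a difference beyond about 1.2-fold lies outside this interval. OCLN has a partial copy on the same chromosome, OCLNP1, and its counts are uncertain where reads fit both.

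Tested gene by gene with the samples taken as unpaired, the two-sided exact permutation test gave p = 0.1 for CDH2, VIM, SNAI1 and SNAI2. This is the smallest p that 3 samples against 3 allow. The same exact test gave p = 0.2 for TWIST1 and 0.6 to 1.0 for the other genes.

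The deviation of AdSIRT4 replicate 1 from the other AdSIRT4 samples went with gene length among the EMT genes as well. It was positive for the 5 shortest genes, with log2 CPM higher by 0.81 for EPCAM (1.76 kb), 0.72 for SNAI2 (2.51 kb), 0.40 for VIM (2.46 kb), 0.25 for TWIST1 (1.84 kb) and 0.10 for SNAI1 (1.95 kb). Of the longer genes, OCLN (7.14 kb) differed by 0.074, CDH1 (5.65 kb) by -0.15, CDH2 (4.58 kb) by -0.19, ZEB2 (8.62 kb) by -0.68 and ZEB1 (6.99 kb) by -0.72. The cause of the length trend was not tested. After the trend of every library on length had been taken out, none of the 10 passed an adjusted p of 0.05 in edgeR, the 2 SNAI genes kept their signs at -0.41 for SNAI1 and 0.85 for SNAI2, and ZEB2 turned from -0.050 to 0.049. In that fit 4 of the 10 (SNAI1, SNAI2, TWIST1 and VIM) had an unadjusted p under 0.05, as did 14.2% of all genes.

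Without AdSIRT4 replicate 1 the number of genes with an adjusted p under 0.05 in edgeR grew to 1227 of 18287 (6.71%), 3.37% higher and 3.34% lower, and none of the 10 EMT genes was among them. An unadjusted p under 0.05 was reached by 24.3% of all genes in this fit and by 4 of the 10, SNAI1, SNAI2, TWIST1 and VIM. SNAI1 and TWIST1 were lower in AdSIRT4 cells, and SNAI2 and VIM were higher. Over 18 fits, which include DESeq2, limma on FPKM and each sample left out in turn, 0 of the 10 genes had an adjusted p under 0.05. Apart from DESeq2 (212 genes) and the fit without AdSIRT4 replicate 1, no fit gave more than 12 genes in all. Those fits could hardly have called any of the 10, so their number adds little. With each sample left out in turn, SNAI2 kept an unadjusted p under 0.05 in 5 of 6 edgeR fits, but not without AdCtrl replicate 1, and SNAI1 kept it in 2 of 6, those without AdCtrl replicate 1 and without AdSIRT4 replicate 1. Over these 6 fits 3.70% to 24.3% of all genes had such a p. In DESeq2, SNAI1 and SNAI2 were again those of the 10 with an unadjusted p under 0.05, where 9.25% of all genes had one.

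**Figure D3:**
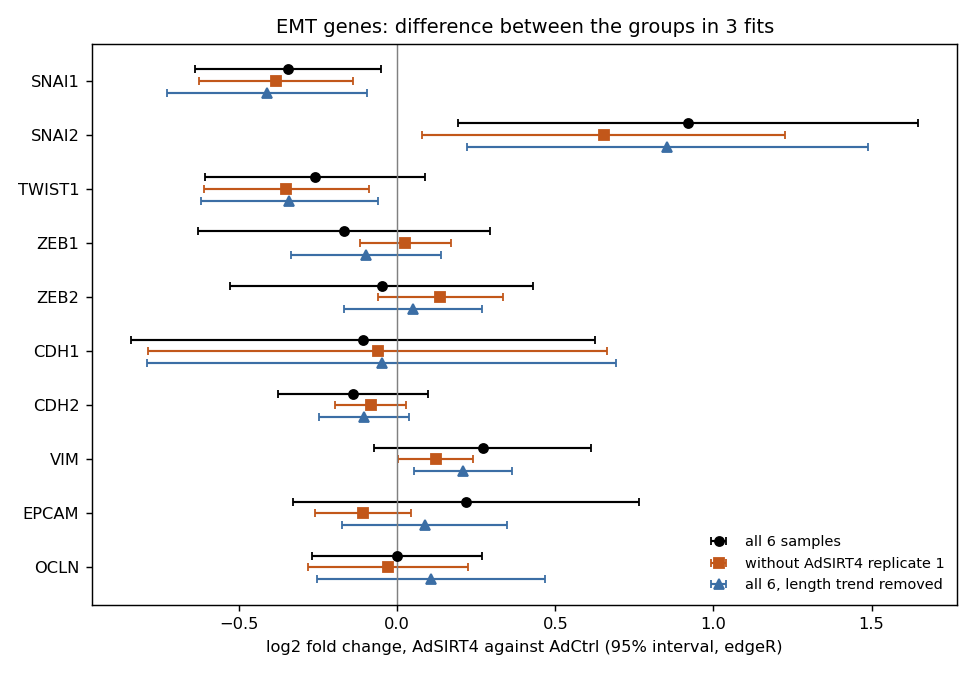
Log2 fold change of each EMT gene, AdSIRT4 against AdCtrl, with 95% intervals from edgeR, over all 6 samples (black circles), without AdSIRT4 replicate 1 (orange squares) and with the length trend of each library removed (blue triangles). SNAI1 and SNAI2 keep their sides of 0 in all 3 fits, while the estimate of EPCAM goes from 0.22 to -0.11 and that of ZEB1 from -0.17 to 0.026 without AdSIRT4 replicate 1.

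The genes around these 10 were followed in 5 lists of 123 genes in all, of which 108 were tested. In the fit of all 6 samples 0 of the 108 had an adjusted p under 0.05 in edgeR. An unadjusted p under 0.05 was found for 13, 6 higher and 7 lower in AdSIRT4 cells. Over all genes tested 7.93% had one, 4.43% higher and 3.5% lower, and these shares stand beside each list below. Without AdSIRT4 replicate 1, 13 had an adjusted p under 0.05 in edgeR, where 6.71% of all genes did. These counts were not tested against the shares over all genes. The genes named below beyond the 2 of smallest p in each list were named after their values were seen.

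Of 30 genes of epithelial adhesion, the partners of CDH1 and OCLN at adherens junctions, tight junctions and desmosomes, 29 were tested, 8 higher and 21 lower, with a median log2 fold change of -0.052. An unadjusted p under 0.05 was found for 2 higher genes (JUP, CLDN4) and 3 lower ones (CDH3, CDH16, TJP3). JUP, the plakoglobin that links cadherins to the cytoskeleton, stood at 94.6 ± 2.94 CPM (SD, n = 3) in AdCtrl and 118.5 ± 4.48 CPM in AdSIRT4 cells. This log2 fold change of 0.33 had an adjusted p of 0.494 over all samples and 0.0116 without AdSIRT4 replicate 1, both in edgeR. CDH3, or P-cadherin, stood at 8.69 and 6.57 CPM (log2 fold change -0.40, adjusted p = 0.578 in edgeR). The kidney-specific cadherin CDH16 had a log2 fold change of -0.34, the tight junction scaffold TJP3 of -0.37 and the claudin CLDN4 of 0.32. In the fit without AdSIRT4 replicate 1, CLDN4 was at 0.18 (adjusted p = 0.0524 in edgeR), and the genes of this list with an adjusted p under 0.05 were JUP, CDH16 (-0.38) and TJP1. TJP1 turned sign between the fits, from -0.030 (adjusted p = 0.970 in edgeR) over all samples to 0.23 (adjusted p = 0.0283).

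Among 18 regulators of the epithelial programme, several of which oppose ZEB1, 13 were tested, 9 higher and 4 lower, with a median of 0.10. Those with an unadjusted p under 0.05 were both lower. They were FOXA2, a forkhead factor of endoderm, at 0.513 and 0.144 CPM (log2 fold change -1.77, adjusted p = 0.494 in edgeR), and the epithelial splicing factor ESRP1 at 2.68 and 1.97 CPM (log2 fold change -0.44, adjusted p = 0.572 in edgeR). FOXA2 lay under 1 CPM in every sample. None of the list had an adjusted p under 0.05 without AdSIRT4 replicate 1.

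Of 26 mesenchymal adhesion and matrix genes, which accompany VIM and CDH2, 22 were tested, 11 higher and 11 lower, with a median of 0.018. All 3 with an unadjusted p under 0.05 were higher. Over all genes tested 4.43% were higher at such a p and 3.5% lower, and the 3 were not tested against these shares. ITGB6, an integrin chain that activates latent TGF-β, had a log2 fold change of 0.26 (adjusted p = 0.558 in edgeR) over all samples and 0.28 (adjusted p = 0.0133) without AdSIRT4 replicate 1. TAGLN, an actin-binding protein of smooth muscle, had 0.50 (adjusted p = 0.607 in edgeR) over all samples and 0.26 (adjusted p = 0.0453) without that sample. In the fit without AdSIRT4 replicate 1, 7 genes of this list had an adjusted p under 0.05 in edgeR, 6 of them higher. Over all genes in that fit 6.71% had one, 3.37% higher, and the list was not tested against this share.

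Of 22 other transcription factors tied to EMT, 17 were tested, 6 higher and 11 lower, with a median of -0.022. An unadjusted p under 0.05 was found for 1 of them, which was lower. FOXC1, a forkhead factor, stood at 14.2 and 12.2 CPM (log2 fold change -0.22, adjusted p = 0.678 in edgeR). Without AdSIRT4 replicate 1, 2 genes of the list had an adjusted p under 0.05 in edgeR, both lower. They include ID3, an inhibitor of basic helix-loop-helix factors, whose log2 fold change was -0.84 (adjusted p = 7.19e-04 in edgeR) in that fit and -0.44 (adjusted p = 0.720) over all samples, where its groups overlapped.

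Of 27 corepressors, kinases and ubiquitin ligases that act with SNAI and ZEB proteins or set their lifetime, all 27 were tested, 11 higher and 16 lower, with a median of -0.026. FBXL5, a subunit of a ubiquitin ligase that degrades Snail, stood at 86.5 and 74.1 CPM (log2 fold change -0.22, adjusted p = 0.612 in edgeR over all samples and 0.0147 without AdSIRT4 replicate 1). AJUBA, a LIM-domain partner of SNAI proteins, stood at 206.7 and 243.8 CPM (log2 fold change 0.24, adjusted p = 0.621 in edgeR). These are the only genes of the list with an unadjusted p under 0.05 over all samples.

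Markers of other cells that could carry mesenchymal transcripts had smaller sums than the 14 markers of the tubule, but not all were low. At least 10 counts in every sample were found for 5 of the 8 fibroblast markers and 2 of the 5 leukocyte markers. The 8 fibroblast markers summed to 43.6 to 46.7 CPM in AdCtrl samples and 42.1 to 42.4 CPM in AdSIRT4 samples. COL3A1 was at 0 in all samples and COL1A2 and PDGFRA at or near 0, while COL1A1 and LUM made up most of the sum. The 5 endothelial markers summed to 0.425 to 0.588 CPM and 0.411 to 0.742 CPM. The 5 leukocyte markers summed to 34.4 to 39.8 CPM in AdCtrl and 38.6 to 49.5 CPM in AdSIRT4 samples, nearly all of it CD68, with CD3E at 0 and PTPRC at or near 0.

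The genes whose level across the 6 samples was most like that of CDH1, among 10358 genes with a mean of at least 10 CPM, were FZD1 (Pearson's r = 0.972 over 6 samples in log2 CPM), NUP88 (0.948) and SMAD1 (0.942). All values of a sample share its library and its scaling, and the CDH1 values rest on few counts, so this order is only a description.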

How the data were processed

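RNA of 6 HK2 samples, 3 per group, was sequenced. The submitters' processing notes name fastp 0.21.0, HISAT2 2.1.0, StringTie 2.1.5, DESeq2 1.30.1 and the build hg38. The authors deposited raw whole-number read counts per gene. Their other deposited table covers the same genes, and its values behaved as FPKM, although no source names the unit. Gene lengths were taken from the ratio of the tables. Groups came from the sample titles. The cell-line label numbers each sample differently, and all were taken to be HK2.

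Counts were compared with edgeR 4.0.16 in R 4.3.3, with filterByExpr at a minimum count of 10, TMM scaling, the robust quasi-likelihood test and Benjamini-Hochberg adjustment over 17720 genes. CPM and FPKM are given without a pseudocount. Single genes were also tested by exact permutation. Alternatives were DESeq2 1.42.0, RLE scaling, other filters, limma 3.58.1 on log2(FPKM + 1) and log2(FPKM + 0.1), a replicate block, removal of each library's trend on gene length, and each sample left out. The fits were tested on simulated data. Tables were made with Python 3.11.15 and figures with matplotlib 3.10.9.

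Samples with the same replicate number deviated from their group means together. Pearson's r across genes was 0.155 to 0.168 for them, against -0.18 to 0.027 for the others. The numbers may therefore pair the samples. This pairing entered only the fits with a replicate block. All other fits and the permutation test took the samples as unpaired.

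The EMT genes and the lists were chosen with earlier results of these data known. Named genes were the 10 EMT genes, SIRT4, the 2 of each list with the smallest p and the 3 most like CDH1. Some genes that meet this rule are not reported here. Promoter windows and positions are from RefSeq GRCh38.p14.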

Additional observations from a re-analysis of the deposited data

How the results depend on the processing

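Over 17 alternatives, 0 of the 10 EMT genes reached an adjusted p under 0.05, but most of these fits called few genes of any kind. An unadjusted p under 0.05 was reached by 1 to 4 of the 10, where 3.70% to 24.3% of all genes had one. The signs of CDH2, VIM, SNAI1, SNAI2 and TWIST1 were the same in all fits that tested them, and 12 of 167 values of the 10 genes turned sign. ZEB2 turned to 0.049 with the length trend removed and to 0.050 with the replicate block as well, and OCLN to 0.11 and 0.097. With each sample left out, log2 fold changes were between -0.32 and 0.14 for CDH1, -0.30 and 0.026 for ZEB1, -0.22 and 0.14 for ZEB2, -0.11 and 0.40 for EPCAM, and -0.030 and 0.024 for OCLN. The cause was not tested.

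Of all genes tested, 2 had an adjusted p under 0.05. There were 5 with all genes of at least 1 count, 4 with at least 10 counts in every sample, 212 in DESeq2, 12 with the length trend removed, 0 in limma on log2(FPKM + 1) with 1643 at an unadjusted p under 0.05, 1 on log2(FPKM + 0.1), and 5 among genes whose FPKM averaged 1 or more, where CDH1, SNAI2 and OCLN were not tested. The replicate block gave 1, and in limma 0 with 1440 unadjusted. The block changed no call among the 10. Leaving out 1 sample gave 0 to 1227, with 0 without any 1 of the AdCtrl samples (668 to 839 at an unadjusted p under 0.05), 1 without AdSIRT4 replicate 2 or 3, and 1227 without AdSIRT4 replicate 1. Low counts limit CDH1 and SNAI2.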

Other observations

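The values here were chosen after the data had been seen. Within each sample SNAI1 was 14.9 to 20.3 times as high as SNAI2 in FPKM in AdCtrl cells and 5.19 to 8.24 times in AdSIRT4 cells. The log2 ratio was 4.07 ± 0.239 and 2.79 ± 0.364 (SD, n = 3). Its groups did not overlap, but this follows from the single genes, since neither SNAI1 nor SNAI2 overlapped and their signs were opposite. The ratio adds no separate evidence. The log2 ratio differed by -1.28, and by -1.07 without AdSIRT4 replicate 1.

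ZEB1-AS1, which is transcribed from the start of ZEB1 on the other strand, stood at 3.66, 3.86 and 5.2 CPM in AdCtrl samples and 2.93, 2.41 and 2.49 CPM in AdSIRT4 samples. The groups did not overlap, with a log2 fold change of -0.71 (adjusted p = 0.494 in edgeR, and 0.0239 without AdSIRT4 replicate 1), while ZEB1 differed by 0.026 in the latter fit. VIM-AS1 averaged 1.25 ± 0.133 CPM and 2.80 ± 1.39 CPM (SD, n = 3), which is 1.15 on the log2 scale (adjusted p = 0.545 in edgeR) and 0.70 without AdSIRT4 replicate 1. MIR200CHG, the host gene of miR-200c, had 0 counts in all 6 samples, and MIR205HG had 8 to 21. Of the 38100 genes, 9873 had no count in any sample. The libraries held mRNA selected with poly-T beads, and mature microRNAs were not measured.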
